A study of Mus musculus with 6 samples.

Results

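Cycling alveolar macrophages, as named here, are resident macrophages of the lung's air spaces that held cell cycle transcripts. In the deepest libraries some of them held late cycle genes close to the noncycling level, as given below. They were picked from single-cell counts by the transcripts they hold. A cell passed the macrophage gate with at least 4 of 11 alveolar macrophage genes detected (Kcnip4, Htr2c, Plet1, Atp6v0d2, Egfem1, Lepr, Slc7a2, Mertk, Fabp1, Siglecf and Marco) and at most 1 UMI (unique molecular identifier, 1 counted transcript) over the lymphocyte genes Cd79a, Cd3e and Ncr1. It was called cycling with at least 2 UMIs over Mki67, Top2a and Birc5. These rules gave 641 cycling cells among 10094 gate cells, of 71634 cells kept in all. The 8876 gate cells with 0 UMIs over the cycle genes served as noncycling alveolar macrophages, and the 577 with 1 UMI belong to neither set.

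The cells came from AML-infiltrated mouse lungs (acute myeloid leukaemia, 3 libraries) and from normal mouse lungs (3 libraries). In both groups the lungs were perfused and digested, and CD45-positive leukocytes were taken on magnetic beads before 10x Genomics 3' sequencing. The labels name neither strain, age, sex nor leukaemia model, do not say which cells are leukaemic, and do not say whether replicates are separate animals, so p-values measure the spread between these libraries only. The libraries held 43913245 to 66513826 UMIs, and at most 118 cell barcodes were shared by any pair of libraries, with 7 cycling cells carrying a barcode also kept in another library.

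Alveolar macrophages clear surfactant lipid and inhaled particles, and depend on GM-CSF and the transcription factor PPARγ. In the healthy adult lung they are known to maintain themselves largely by local division. A dividing cell copies its DNA in S phase with the MCM helicase, PCNA and nucleotide-making enzymes. It then builds the spindle and kinetochores in G2 and mitosis, and many genes of that late wave carry a CHR element (TTTGAA) near the start, often beside CCAAT boxes, while many S phase genes carry E2F sites.

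Promoter sequence is shown first because both waves appear in the values that follow. The 150 bases before the annotated start (RefSeq, GRCm38.p6, the build also called mm10) are given 5′ to 3′ on the gene's strand for late genes, for the gate gene Mki67, for Sdk1 and for S phase genes, with capitals marking the CHR element TTTGAA, the box CCAAT and the E2F-type words on either strand. The late and S phase genes shown are those of highest level in cycling cells whose printed stretch holds TTTGAA or an E2F-type word. They lie at chr2:164769779-164769928 on the plus strand (Ube2c), chr19:37376232-37376381 on the plus strand (Kif11), chr2:129297213-129297362 on the minus strand (Ckap2l), chr7:135716380-135716529 on the minus strand (Mki67), chr5:141241384-141241533 on the plus strand (Sdk1), chrX:93632156-93632305 on the minus strand (Pola1) and chr1:128359706-128359855 on the minus strand (Mcm6).
Ube2c: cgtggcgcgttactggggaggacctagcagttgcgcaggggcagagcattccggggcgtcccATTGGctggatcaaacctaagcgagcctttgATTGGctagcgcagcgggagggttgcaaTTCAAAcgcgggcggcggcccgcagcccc
Kif11: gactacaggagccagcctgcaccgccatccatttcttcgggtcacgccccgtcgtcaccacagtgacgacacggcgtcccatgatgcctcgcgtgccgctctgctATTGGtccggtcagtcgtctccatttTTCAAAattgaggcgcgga
Ckap2l: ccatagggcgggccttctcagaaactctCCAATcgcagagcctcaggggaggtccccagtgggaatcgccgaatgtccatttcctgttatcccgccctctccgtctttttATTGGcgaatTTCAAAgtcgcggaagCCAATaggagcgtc
Mki67: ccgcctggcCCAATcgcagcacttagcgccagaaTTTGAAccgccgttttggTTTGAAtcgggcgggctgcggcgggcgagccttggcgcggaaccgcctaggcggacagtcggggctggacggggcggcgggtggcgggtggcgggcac
Sdk1: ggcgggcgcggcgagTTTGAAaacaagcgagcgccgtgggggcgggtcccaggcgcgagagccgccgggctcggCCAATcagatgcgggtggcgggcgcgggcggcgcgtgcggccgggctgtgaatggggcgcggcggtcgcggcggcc
Pola1: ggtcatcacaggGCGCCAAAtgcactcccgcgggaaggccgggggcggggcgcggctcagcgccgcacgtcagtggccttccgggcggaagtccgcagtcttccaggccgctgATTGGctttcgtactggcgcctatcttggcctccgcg
Mcm6: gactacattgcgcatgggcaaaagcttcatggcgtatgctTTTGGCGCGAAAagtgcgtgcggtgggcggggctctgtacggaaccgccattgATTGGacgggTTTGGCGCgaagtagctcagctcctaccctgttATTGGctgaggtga

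The words searched were the CHR element TTTGAA, the box CCAAT and, as E2F-type words, TTTCCCGC plus the variants TTTGGCGC plus TTTCGCGC plus TTTGCCGC, on both strands, from 250 bases before to 50 after any listed start. TTTGAA lay in that window for 23 of the 30 matched genes of a list of G2 and mitosis genes (76.7%), 4 of the 27 matched S phase genes (14.8%) and 20.2% of all 27025 genes of the table. In the 250 bases before the start alone it lay in 33.3% of the late genes, against 18.3% of all genes. E2F-type words lay in 40.7% of the S phase genes, 3.33% of the late genes and 2.60% of all genes, and CCAAT in 59.3%, 73.3% and 41.1%. A match describes these letters only.

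The label was set beside its markers. Plet1, a surface protein of alveolar macrophages, stood at 606, 298 and 452 CPM (UMIs summed over the cells of a library and scaled to a common total) in cycling cells of the AML lungs, in order of replicate, and at 930, 791 and 923 CPM in cycling cells of normal lung. Atp6v0d2, a vacuolar proton pump subunit, stood at 1032, 379 and 841 CPM in AML lung and at 1190, 1018 and 1114 CPM in normal lung. Both genes belong to the gate, so their presence was favoured by the rule and does not support the label. Of 8 alveolar macrophage genes that the gate did not use (Fabp4, Chil3, Ear1, Ear2, Car4, Krt79, Cidec and Lpl), at least 3 were detected in 100%, 100% and 80.1% of cycling cells of AML lung and in 100%, 99.2% and 87.0% of those of normal lung. This share was not taken in cells outside the gate. Of 8 genes that mark interstitial macrophages, C1qa, C1qb and Folr2 had 0 UMIs in the cycling cells of every library. The 8 genes summed to 13.9, 105 and 74.8 CPM in AML lung and to 9.74, 17.6 and 4.59 CPM in normal lung; their part in other results was not tested. Cx3cr1, the fractalkine receptor and also a gene of nonclassical monocytes, made up much of that sum, with 12.2, 49.2 and 55.7 CPM in AML lung and 4.57, 10.4 and 3.06 CPM in normal lung (edgeR adjusted p = 0.421).

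Libraries differed in other cell types' transcripts, among the cycling cells and also among the noncycling ones. Summed over 7 neutrophil genes, cycling cells of the AML lungs held 83.5, 1802 and 2525 CPM, in order of replicate, and those of the normal lungs 113, 85.8 and 71.1 CPM. For the neutrophil genes AML lung replicates 2 and 3 thus stood apart, while replicate 1 lay in the normal range. The 6 nonclassical monocyte genes gave 334, 892 and 553 CPM in AML lung and 230, 268 and 287 CPM in normal lung. For these genes replicate 1 also lay above every normal lung library. With predicted doublets left out, their median log2 fold change of AML over normal lung went from 1.21 over 6 genes to 0.38 over 5. The 5 classical monocyte genes gave 4.35, 87.8 and 667 CPM in AML lung against 23.1, 19.6 and 40.5 CPM in normal lung, and the 5 NK cell genes gave 0.870, 7.03 and 251 CPM against 5.17, 11.2 and 26.8 CPM. The 5 endothelial genes gave 11.3, 436 and 115 CPM in AML lung and 6.96, 32.7 and 16.1 CPM in normal lung. In noncycling cells the neutrophil genes summed to 339, 730.5 and 4115 CPM in AML lung and 346, 193 and 224 CPM in normal lung. The nonclassical monocyte genes gave 320, 531 and 750 CPM there in AML lung and 198, 256 and 286 CPM in normal lung. Endothelial genes gave 32.9, 146 and 255.5 CPM in noncycling cells of AML lung and 5.75, 14.1 and 59.2 CPM in those of normal lung. Replicate 2 of AML lung rests on 19 cycling cells, of which 5 were predicted doublets, beside 2 of 49 and 15 of 186 in replicates 1 and 3 and 4 of 152, 5 of 127 and 4 of 108 in normal lung. Values without single libraries are given with the gene lists below, though not for every library and list.

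**Figure D1:**
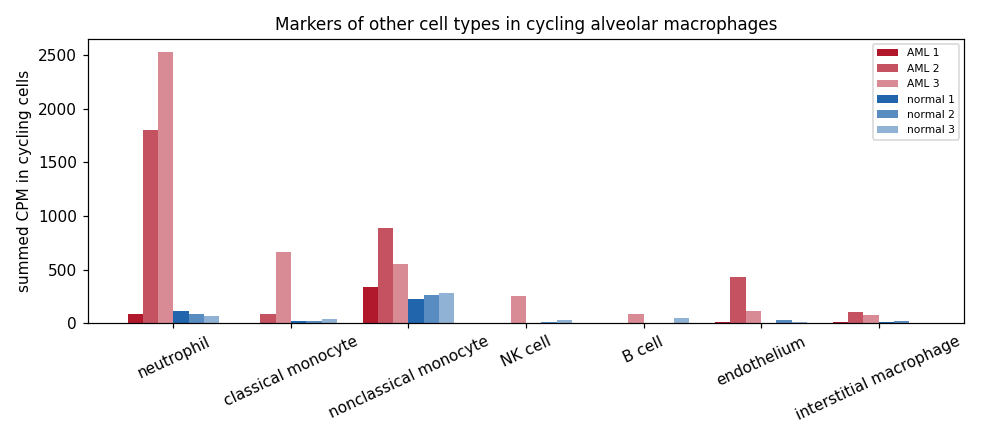
Summed CPM of marker lists of other cell types (vertical axis) in cycling alveolar macrophages, with 1 bar a library and AML lung in red, left of normal lung in blue. Neutrophil genes reach 1802 and 2525 CPM in AML lung replicates 2 and 3, and 83.5 CPM in replicate 1.

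The cycling share of gate cells was the first comparison. In the AML lungs, replicates 1 to 3, it was 16.6% (49 of 296 cells), 3.65% (19 of 521) and 3.45% (186 of 5388). Among gate cells of the normal lungs it was 14.8% (152 of 1030), 10.3% (127 of 1229) and 6.63% (108 of 1630). The exact Clopper-Pearson 95% intervals, which cover counting error only, ran from 12.5% to 21.3%, 2.21% to 5.64% and 2.98% to 3.97% in AML lung, and from 12.6% to 17.1%, 8.69% to 12.2% and 5.47% to 7.94% in normal lung. The groups overlapped, because AML lung held both the highest share and the lowest ones.

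AML lungs had a mean share of 7.88% ± 7.51 and normal lungs one of 10.6% ± 4.07 (SD over 3 libraries each). The difference of -2.69 percentage points was smaller than the spread between libraries (exact two-sided permutation test over the libraries, p = 0.6, where the smallest p that 3 against 3 allows is 0.1). Without AML lung replicate 1 the difference was -7.02 percentage points, without AML lung replicate 2 it was -0.569 and without replicate 3 it was -0.472. Without normal lung replicate 1 it was -0.595, and without normal lung replicate 3 it was -4.66.

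Depth moved with the share. Cycling cells had median UMI counts of 21975, 15477 and 2635 in AML lung and 32367.5, 16725 and 11052.5 in normal lung, and noncycling cells had 17084, 5648.5 and 1474 in AML lung and 24934, 13278 and 4801 in normal lung. When each gate cell was thinned at random to 3000 UMIs, the share was 9.18%, 2.62% and 8.69% in AML lung and 4.35%, 5.70% and 5.35% in normal lung. The mean difference then had the opposite sign, +1.70 percentage points (exact permutation test, p = 0.4), but 4569 of the 5388 gate cells of AML lung replicate 3 were too shallow to enter. Thinned to 1000 UMIs, the share was 5.04%, 0.571% and 2.37% in AML lung and 2.20%, 3.33% and 3.07% in normal lung, a difference of -0.210 percentage points (exact permutation test, p = 1.0).

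AML lung replicate 2 had the lowest share in AML lung at both thinned depths. As a measure of transcripts in cells that should lack cycle genes, neutrophils with at least 2 cycle gene UMIs made up 2.91%, 1.77% and 1.30% of neutrophils in AML lung and 0.259%, 0.258% and 0.198% in normal lung. Their median UMI counts were 4930, 2638 and 1212 in AML lung and 5546, 3841 and 2356 in normal lung. Thinned to 3000 UMIs, the neutrophil share was 1.76%, 2.04% and 6.39% in AML lung and 0.279%, 0% and 0% in normal lung. At 1000 UMIs it was 0.837%, 0.157% and 0.853% in AML lung and 0% in all 3 normal lung libraries. The neutrophil share was below the macrophage share of the same library at each depth. In AML lung replicates 2 and 3 at 3000 UMIs it came close to it. There it rests on the 294 of 680 and 219 of 2854 neutrophils that were deep enough. The 219 deep ones of replicate 3 differed from its neutrophils as a whole, of which 1.30% held these UMIs before thinning. At 3000 UMIs cycling macrophages of replicates 2 and 3 held 5467 and 6300 CPM of the G2 and mitosis genes. Noncycling ones at that depth held 294 and 322 CPM. Whether the neutrophils so picked in AML lung include dividing cells was not tested, so the measure may hold more than background.

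**Figure D2:**
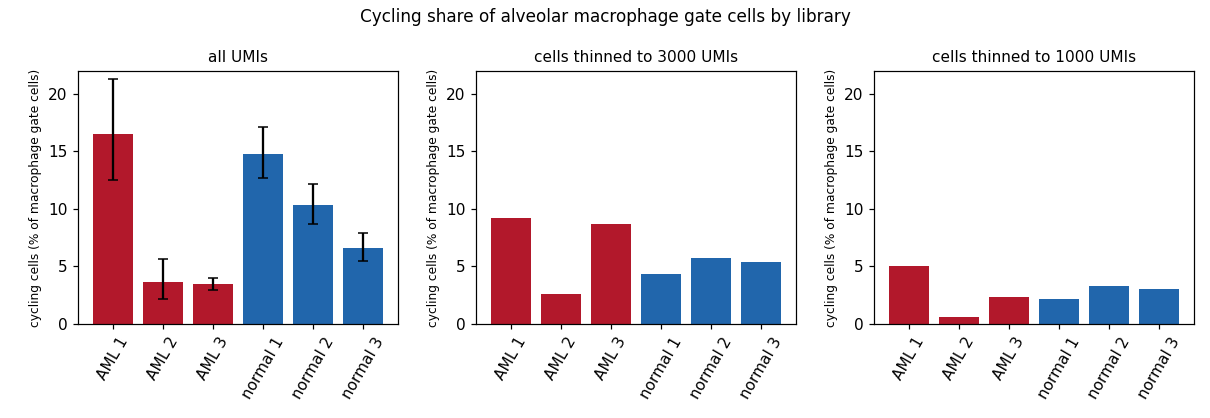
Cycling cells as a percentage of macrophage gate cells in each library (AML lung in red, normal lung in blue), with all UMIs and after thinning cells to 3000 or 1000 UMIs; bars on the first panel are exact 95% intervals. AML lung replicates 2 and 3 sit at 3.65% and 3.45% with all UMIs, while replicate 3 sits at 8.69% at 3000 UMIs.

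The gate cells themselves were 6.52%, 4.02% and 15.3% of kept cells in AML lung and 29.1%, 22.3% and 16.6% in normal lung, without overlap. AML lungs averaged 8.61% ± 5.92 and normal lungs 22.7% ± 6.29 (SD over 3 libraries each; exact permutation test, p = 0.1, the smallest possible). A share falls where other leukocytes are added, so fewer macrophages and more of the other cells cannot be told apart here.

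At the edge of the rule, cycle gene sums differed between libraries. Gate cells with 1 cycle gene UMI, just outside, held 386, 327 and 547 CPM over the 35 genes of the G2 and mitosis list in AML lung and 329, 313 and 499 CPM in normal lung. Those with 2 UMIs, just inside, held 377, 472 and 2296 CPM in AML lung and 430, 427 and 644 CPM in normal lung. They numbered 11, 4 and 32 cells in AML lung and 48, 32 and 29 in normal lung. The noncycling cells held 299, 295 and 321 CPM in AML lung and 284, 271 and 283 CPM in normal lung. In the deepest libraries 2 UMIs thus came with late cycle genes close to the noncycling level, whereas in AML lung replicate 3, the shallowest, they came with a level several times higher. Over the S phase list the cells with 2 UMIs held 509, 567 and 1268 CPM in AML lung and 913, 1035 and 1312 CPM in normal lung. That was above the noncycling level in every library, which was 384, 429 and 442 CPM in AML lung and 440, 414 and 433 CPM in normal lung.

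Cells with 8 or more cycle gene UMIs had high late gene sums in every library. They held 7344, 8564 and 7466 CPM of the G2 and mitosis genes in AML lung and 6169, 6746 and 6772 CPM in normal lung, over 30, 8 and 54 cells and over 52, 64 and 45 cells. At the macrophage edge, cells with cycle genes and 4 gate genes numbered 0, 1 and 42 in AML lung and 0, 1 and 3 in normal lung. With 3 gate genes, just outside, there were 0, 0 and 28 cells in AML lung and 4, 2 and 9 in normal lung. Summed over 22 alveolar macrophage genes outside the gate, the 42 cells of AML lung replicate 3 with 4 gate genes held 13160 CPM and its 28 cells with 3 held 11880 CPM. Its 21 cells with 2 gate genes held 8209 CPM.

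**Figure D3:**
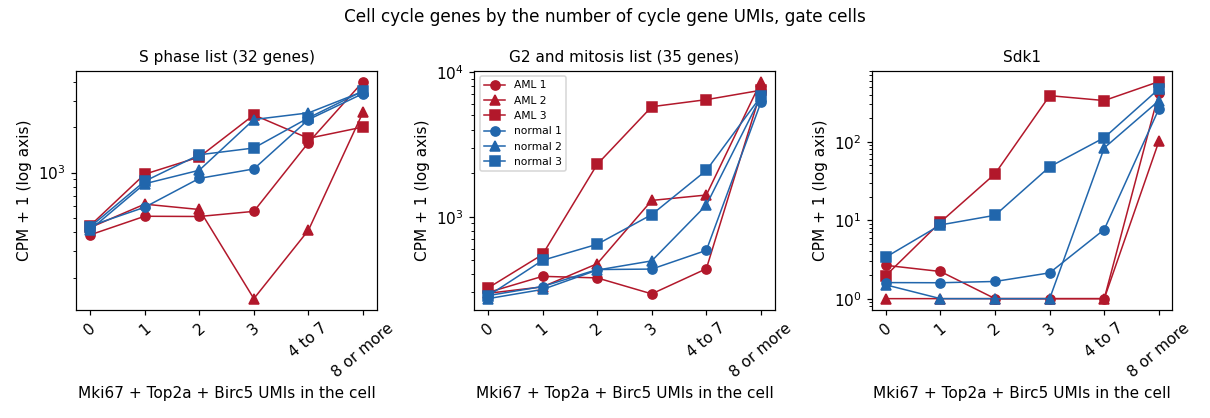
Summed CPM of the S phase list, of the G2 and mitosis list, and Sdk1 (CPM + 1, log axes) in gate cells grouped by their number of Mki67, Top2a and Birc5 UMIs, with 1 line a library (AML lung red, normal lung blue). The late genes reach 6169 to 8564 CPM at 8 or more UMIs in all 6 libraries, while at 2 UMIs AML lung replicate 3 stands at 2296 CPM and the other libraries between 377 and 644 CPM.

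Cycling against noncycling cells is the contrast that the rule itself made, so the values are a description without a test. Among 8318 genes with a mean of at least 10 CPM over both states, 1623 (19.5%) were higher and 948 (11.4%) lower in cycling cells of all 6 libraries. At least 2-fold higher in all 6 (on log2(CPM + 5)) were 235 genes (2.83%), and 0 were at least 2-fold lower. Those 235 genes took 3.27%, 2.92% and 3.53% of the UMIs of cycling cells in AML lung and 1.84%, 2.96% and 2.90% in normal lung, against 0.361% to 0.398% in noncycling cells.

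All 35 genes of the G2 and mitosis list were at least 2-fold higher in cycling cells of every library, beside 2.83% of all 8318 genes. The median log2 ratio was 3.54, beside 0.03 over all genes. Cenpf, a kinetochore protein, stood at 264, 457 and 345 CPM in cycling cells of AML lung against 0.277, 0 and 0.754 CPM in noncycling cells. In normal lung it stood at 115, 225 and 232 CPM in cycling cells against 0.219, 0.927 and 1.52 CPM in noncycling cells. Smc4, a condensin subunit that compacts chromosomes, already had 68.4 to 95.2 CPM in noncycling cells and reached 425, 298 and 580 CPM in cycling cells of AML lung and 234, 369 and 415 CPM in those of normal lung. Every cycling value of both genes exceeded every noncycling value.

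Ube2c, the conjugating enzyme that feeds the anaphase-promoting complex and whose promoter is printed above, had a mean log2 ratio of 4.95 and at most 2.26 CPM in any noncycling set. Nusap1, a spindle microtubule protein, had 278, 228 and 245 CPM in AML lung and 133, 221 and 204 CPM in normal lung, with at most 1.43 CPM in noncycling cells. Prc1, which bundles the central spindle, and Kif11, the motor that separates spindle poles, had mean log2 ratios of 4.95 and 4.80. The kinetochore genes Cenpe and Knl1 had 4.58 and 4.66, and Tpx2, an activator of Aurora A, had 4.27. Normal lung replicate 1, the deepest library, had the lowest cycling value for Cenpf, Ube2c, Nusap1, Prc1, Kif11 and Tpx2.

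The S phase list had smaller ratios. Of its 32 genes 29 passed the floor of 10 CPM. All 29 were higher in every library and 19 at least 2-fold, beside 19.5% and 2.83% of all genes. The median log2 ratio was 2.02. Because a gene low in both states could pass only through the cycling cells, these counts describe the list and support nothing. Pcna, the clamp of the replicative polymerases, had 398, 172 and 191 CPM in cycling cells of AML lung against 57.2, 88.3 and 67.1 CPM in noncycling ones. In normal lung it had 227, 333 and 335 CPM in cycling cells against 70.4, 72.7 and 67.6 CPM in noncycling ones.

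Pola1, the catalytic subunit of DNA polymerase alpha, had 292, 172 and 183 CPM in cycling cells of AML lung and 249, 323 and 322 CPM in those of normal lung, with 40.1 to 48.0 CPM in noncycling cells. Rrm1 and Rrm2 are the subunits of ribonucleotide reductase, which makes deoxynucleotides. They had mean log2 ratios of 2.73 and 4.25, and noncycling cells held 13.7 to 18.3 CPM of Rrm1 but under 1 CPM of Rrm2. The helicase genes Mcm2 to Mcm7 had mean log2 ratios between 1.51 and 2.40.

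Among replication-dependent histones, 9 of the 11 that passed the floor were at least 2-fold higher in every library, beside 2.83% of all genes. Hist1h1b, a linker histone, had 393, 148 and 251 CPM in cycling cells of AML lung and 105, 232 and 273 CPM in those of normal lung, against at most 2.15 CPM in noncycling cells. Hist1h2bc was lower in cycling cells, with 45.2, 42.1 and 50.5 CPM in cycling cells of AML lung against 75.5, 54.6 and 78.8 CPM in noncycling ones, and 49.1, 45.1 and 58.9 CPM against 89.0, 107 and 88.3 CPM in normal lung. Histone genes share much of their sequence, so the split of reads among them is uncertain. Pclaf, a PCNA-binding factor, had the largest mean log2 ratio apart from the gate genes, 5.59, and Stmn1, which destabilises microtubules, had the highest mean cycling level of the 20 genes named as highest, with 1091, 878 and 1286 CPM in AML lung and 417, 895 and 936 CPM in normal lung.

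**Figure D4:**
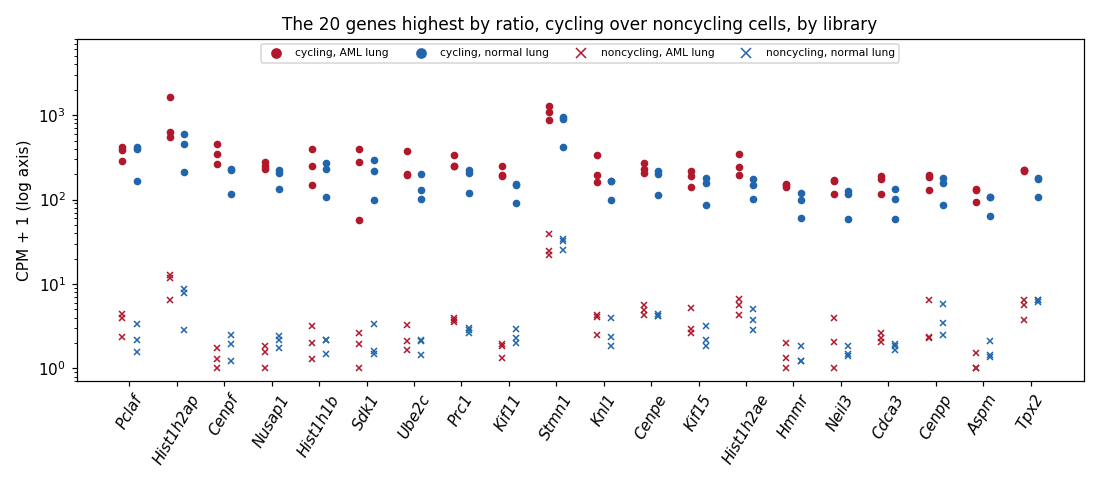
CPM + 1 (log axis) of the 20 genes with the largest mean log2 ratio of cycling over noncycling cells, the gate genes left out, with 1 point a library; circles are cycling and crosses noncycling cells, AML lung red at left and normal lung blue at right. For every gene all cycling points lie above all noncycling points, Sdk1 included.

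Sdk1 stood among these genes with a mean log2 ratio of 4.99. It encodes a sidekick cell adhesion protein, known from synapses of the mouse and chick retina, and is no cell cycle gene by its known role. It had 274, 56.2 and 400 CPM in cycling cells of AML lung against 1.66, 0 and 0.970 CPM in noncycling ones. In normal lung it had 97.8, 218 and 290 CPM in cycling cells against 0.603, 0.499 and 2.38 CPM in noncycling ones.

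Sdk1 UMIs were found in 42.9%, 26.3% and 50.5% of cycling cells of AML lung and in 20.4%, 35.4% and 44.4% of those of normal lung. Of noncycling cells 0.485%, 0% (0 of 478, with an upper 95% limit of 0.769%) and 0.159% in AML lung and 0.663%, 0.716% and 0.633% in normal lung held one. Cells with 8 or more cycle gene UMIs held 416, 99.9 and 583 CPM in AML lung and 260, 332 and 470 CPM in normal lung, while cells with 1 held at most 8.45 CPM. Cycling cells of other kinds (at most 1 gate gene) held 11.8 to 114 CPM of Sdk1 and noncycling cells of other kinds 0.352 to 1.46 CPM. The gene spans 974.1 kb at chr5:141241490-142215586 on the plus strand (GENCODE vM21, mm10). The sources at hand do not state whether reads from introns were counted, so how much of this count is spliced transcript was not tested.

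Genes that drive entry into the cycle differed less between states. Of 8 G1 genes that passed the floor, 4 were higher and 3 lower in every library, beside 19.5% and 11.4% of all genes. The median log2 ratio was 0.39. Ccnd3, a D-type cyclin, had 222, 119 and 642 CPM in cycling cells of AML lung against 326, 133 and 1098 CPM in noncycling ones, and 374, 361 and 366 CPM against 516, 566 and 606 CPM in normal lung. Cdk4, its partner kinase, had a mean log2 ratio of 0.99 and was higher in cycling cells of all 6 libraries. E2f2, an activator of S phase genes, had 1.41.

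Of 13 inhibitors and antiproliferative genes that passed the floor, 4 were higher and 2 lower in every library, beside 19.5% and 11.4% of all genes. The median was 0.11. Cdkn2c, which inhibits Cdk4 and Cdk6, had 42.6, 21.1 and 22.6 CPM in cycling cells of AML lung against 0.553, 3.27 and 1.72 CPM in noncycling ones, and 17.3, 29.1 and 30.6 CPM against 0.931, 0.642 and 1.30 CPM in normal lung. Btg2 and Tob1, known to restrain proliferation, were lower in every library, with mean log2 ratios of -0.46 and -0.44. Cdkn1a, the p21 inhibitor, had a mean log2 ratio of 0.15 and was not in 1 direction across libraries.

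Macrophage identity genes were lower in cycling cells. Of 22 alveolar macrophage genes outside the gate, 15 were lower in every library and 0 higher, beside 11.4% and 19.5% of all genes. The median log2 ratio was -0.29, beside 0.03 over all genes. Ear2, an eosinophil-associated ribonuclease, had 722, 439 and 385 CPM in cycling cells of AML lung against 1169, 1057 and 658 CPM in noncycling ones, and 773, 589 and 623 CPM against 963, 890 and 979 CPM in normal lung. Lpl, lipoprotein lipase, and Abcg1, a cholesterol exporter, had mean log2 ratios of -0.57 and -0.56. Chil3, a chitinase-like protein and the most abundant of the list, had -0.22. Ctsk had 0.35, with both directions across libraries. Cycling cells spent more of their UMIs on cycle genes. The summed neutrophil genes also entered these totals, and were lower in cycling than in noncycling cells of every library but AML lung replicate 2. There they held 1802 CPM in cycling against 730.5 CPM in noncycling cells. The part of either in the difference was not tested.

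Among growth factor receptors and fate regulators, 7 of 18 genes were lower and 0 higher in cycling cells of every library, beside 11.4% and 19.5% of all genes. Csf2rb, the shared signalling chain of the GM-CSF receptor, had 267, 200 and 171 CPM in cycling cells of AML lung against 353, 267 and 261 CPM in noncycling ones, and 327, 304 and 281 CPM against 397, 410 and 378 CPM in normal lung. Pparg, the master regulator of the alveolar macrophage fate, had a mean log2 ratio of -0.25 and was lower in cycling cells of every library. Junb, an AP-1 subunit, had 371, 344 and 400 CPM in cycling cells of AML lung against 515, 751 and 736 CPM in noncycling ones, and 249, 264 and 267 CPM against 407, 427 and 480 CPM in normal lung.

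Among genes that were lower in cycling cells of every library, the lowest mean log2 ratio of those named, -1.35, belonged to Retnlg, a neutrophil gene, with 2.61, 7.03 and 144 CPM in cycling cells of AML lung against 20.5, 50.1 and 339 CPM in noncycling ones. In normal lung it had 1.59, 0.399 and 0 CPM in cycling cells against 10.3, 4.99 and 4.12 CPM in noncycling ones. Erc2 followed with -0.93, then the tetraspanin Cd63 with -0.88 and the metalloproteinase Mmp19 with -0.86. Il1b, the interleukin, had -0.78. UMIs summed over H2-Aa, H2-Ab1, H2-Eb1 and Cd74, genes of MHC class II presentation, rested largely on 1 cycling cell in 4 of the 6 libraries. That cell held 87.4% of these UMIs in AML lung replicate 1 and between 50.3% and 53.3% in the normal lung libraries, against 33.3% and 11.4% for the leading cell of AML lung replicates 2 and 3, so no direction is given.

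**Figure D5:**
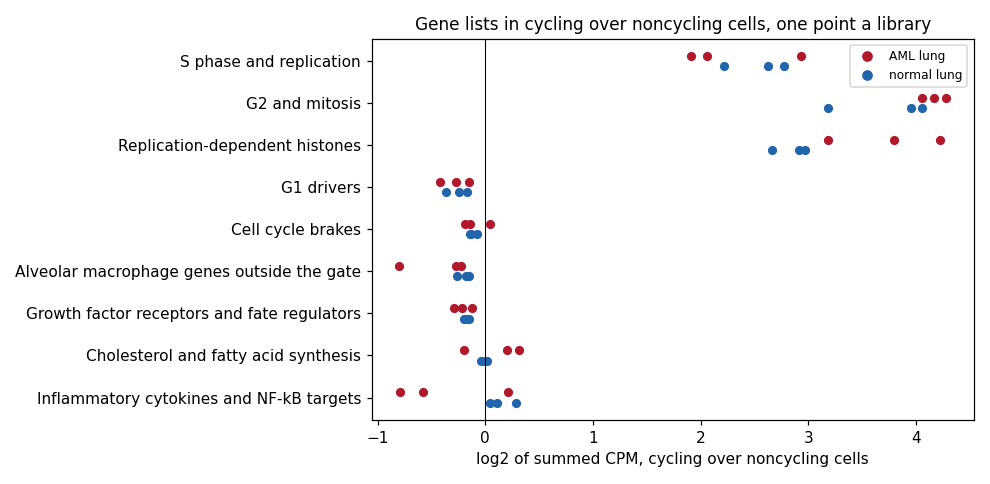
Log2 ratio of summed CPM, cycling over noncycling cells, for gene lists, with 1 point a library (AML lung red above, normal lung blue below). The S phase, G2 and mitosis, and histone lists lie well above 0 in all 6 libraries, and the alveolar macrophage and growth factor receptor lists lie below 0 in all 6.

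The contrast of AML lung with normal lung within cycling cells was not used by the rule. No gene passed: 0 of 8909 genes tested (0%) had an adjusted p under 0.05 in edgeR's quasi-likelihood test with Benjamini-Hochberg adjustment, the lowest being 0.107. At an unadjusted p under 0.05 there were 790 genes (8.87%), 397 higher (4.46%) and 393 lower (4.41%), and the groups did not overlap for 662 higher (7.43%) and 721 lower genes (8.09%). DESeq2 called 37 genes, 28 higher and 9 lower, with 6976 of its 17978 adjusted p-values not given. Without AML lung replicate 1 edgeR called 226 of 9387 genes, 169 higher and 57 lower. It called 0 without AML lung replicate 2 and 0 without replicate 3. Fitted without a filter on low counts it called 440 of 17978 genes, 311 higher and 129 lower. The test of whether this change differed between cycling and noncycling cells called 0 of 11362 genes (lowest adjusted p 0.989), with 516 (4.54%) at an unadjusted p under 0.05, 147 higher (1.29%) and 369 lower (3.25%).

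The 12 genes named here did not pass in this fit. They were taken by p value within each direction, among genes above a set level whose groups did not overlap. Genes outside these limits could have lower p values. DESeq2 called 9 of the 12, and edgeR without AML lung replicate 1 called 9. Without AML lung replicate 2 or 3, or any single normal lung library, edgeR called 0. Fitted without a filter on low counts, edgeR called all 12. That fit gave S100a9 an edgeR adjusted p of 1.24e-101, although its AML lung values ran from 19.1 to 1241 CPM. P-values of the fit without a filter thus do not measure the spread between libraries, and its counts here and below carry little weight. Wfdc21, a small secreted whey acidic protein family member, had 141, 144 and 172 CPM in AML lung and 428, 432 and 331 CPM in normal lung (log2 fold change -1.39 ± 0.18 SE, edgeR adjusted p = 0.107). Noncycling cells held 173, 139 and 245 CPM in AML lung and 381, 397 and 301 CPM in normal lung. Hsd3b7, an enzyme of bile acid and oxysterol metabolism, had 47.8, 38.6 and 29.6 CPM in AML lung and 105, 80.3 and 79.6 CPM in normal lung (log2 fold change -1.16 ± 0.23 SE, edgeR adjusted p = 0.308). Rgs1, Gab1, Tpp1 and Gpnmb had log2 fold changes between -0.96 and -0.70.

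Dgat1, which makes triglyceride for lipid droplets, had 99.1, 102 and 153 CPM in AML lung and 47.5, 39.1 and 53.6 CPM in normal lung (log2 fold change 1.34 ± 0.22 SE, edgeR adjusted p = 0.223). The same gene had 102, 115 and 88.5 CPM in noncycling cells of AML lung and 46.7, 50.5 and 59.7 CPM in those of normal lung. Dusp5, a phosphatase of ERK, had 123, 235 and 155 CPM in AML lung and 75.4, 73.1 and 66.6 CPM in normal lung (log2 fold change 1.17 ± 0.22 SE, edgeR adjusted p = 0.308). With predicted doublets left out its log2 fold change was 0.73. Pou2f2, S100a9, Bcl6 and S100a6 were the other named genes that were higher in AML lung. S100a9, a neutrophil gene, had 19.1, 576 and 1241 CPM in AML lung and 16.9, 8.78 and 12.2 CPM in normal lung, so that replicates 2 and 3 carried nearly all of its difference. The neutrophil sums of the same cells are given above, and their part in these fold changes was not tested.

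Most alveolar macrophage genes had a negative fold change in AML lung. Of the 22 outside the gate, 0 passed adjustment, 21 had a negative fold change, 15 an unadjusted p under 0.05 in that direction (4.41% of all genes), and the median log2 fold change was -0.65, beside 0.01 over all genes. Chil3 had 5394, 3382 and 4205 CPM in AML lung and 7789, 6717 and 5688 CPM in normal lung (log2 fold change -0.65, edgeR adjusted p = 0.441). Car4, carbonic anhydrase 4, had 136, 31.6 and 146 CPM in AML lung and 295, 287 and 388 CPM in normal lung (log2 fold change -1.52, edgeR adjusted p = 0.416). Plin2, which coats lipid droplets, was the exception, with a log2 fold change of 0.42. The median was -0.49 without AML lung replicate 2 and -0.61 without replicate 3. Without replicate 1 it was -0.86 and 4 of the genes passed adjustment, all lower, beside 57 lower of all 9387 genes. The 15 became 11 without AML lung replicate 2, normal lung replicate 1 or normal lung replicate 3. Without a filter on low counts 13 of the 22 passed, all lower, beside 129 lower of all 17978 genes, and by DESeq2 1 did. The summed list in noncycling cells was 24270, 21230 and 19070 CPM in AML lung and 29220, 27620 and 26580 CPM in normal lung.

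All 35 genes of the G2 and mitosis list had a positive fold change, beside 4565 of all 8909 genes. Of the 35, 0 passed adjustment and 15 had an unadjusted p under 0.05 in that direction (4.46% of all genes). The median log2 fold change was 0.49, beside 0.01 over all genes. Without normal lung replicate 1 the median was 0.24 with 3 genes at an unadjusted p under 0.05, and without AML lung replicate 3 it was 0.43 with 4. DESeq2 gave 9 at an unadjusted p under 0.05. In edgeR without a filter on low counts 4 of the genes passed adjustment, beside 311 higher of all 17978 genes. Their sum was 4968, 5293 and 6218 CPM in AML lung and 2582, 4501 and 4368 CPM in normal lung. Gate cells were also thinned to 3000 UMIs and the rule applied to them again. This left 27, 10 and 69 cycling cells in AML lung and 43, 65 and 49 in normal lung. Their sum was 7741, 5467 and 6300 CPM in AML lung and 6566, 6574 and 6483 CPM in normal lung, and the groups overlapped. Aurka, a spindle pole kinase, had 45.2, 56.2 and 38.3 CPM in AML lung and 18.1, 29.9 and 25.2 CPM in normal lung (log2 fold change 0.91, edgeR adjusted p = 0.433).

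The S phase list had 23 of 31 tested genes with a negative fold change, beside 4344 of all 8909 genes. At an unadjusted p under 0.05 there were 3 lower genes (4.41% of all genes), with 0 past adjustment. The median was -0.19, beside 0.01 over all genes. Without AML lung replicate 1, 3 of 32 genes passed adjustment, all lower, beside 57 lower of all 9387. The median was then -0.61, with 14 genes lower at an unadjusted p under 0.05, beside 806 of all 9387. It was -0.06 with 0 such lower genes without AML lung replicate 3, and -0.07 with 1 without AML lung replicate 2. Without normal lung replicate 1 it was -0.37 and without normal lung replicate 2 -0.13, each with 1. DESeq2 also gave 1 at an unadjusted p under 0.05, and edgeR without a filter on low counts gave 9, with 1 past adjustment. Its sum was 2925, 1616 and 1834 CPM in AML lung and 2045, 2839 and 2680 CPM in normal lung. Thinned, it was 4086, 2033 and 1589 CPM in AML lung and 3395, 3421 and 3129 CPM in normal lung. The ratio of the S phase sum to the late sum in thinned cells was 0.528, 0.372 and 0.252 in AML lung and 0.517, 0.520 and 0.483 in normal lung. Replicates 2 and 3 of AML lung, whose cycling and noncycling cells also carried neutrophil transcripts, held the low values, and replicate 1 lay above the normal range. The thinned value of replicate 2 rests on 10 cycling cells.

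Sterol genes gave 10 of 16 positive fold changes and a median of 0.34, beside 4565 positive of all 8909 genes. At an unadjusted p under 0.05 there were 5 higher and 1 lower, beside 4.46% and 4.41% of all genes, and 0 passed adjustment. The 5 became 1 without AML lung replicate 3 and 2 without normal lung replicate 1. DESeq2 and edgeR without AML lung replicate 1 each called 1 gene of the list, and edgeR without a filter on low counts 2. Insig1, which holds the sterol sensor in the endoplasmic reticulum, had 60, 105 and 85.3 CPM in AML lung and 33.6, 39.5 and 33.7 CPM in normal lung (log2 fold change 1.14 ± 0.23 SE, edgeR adjusted p = 0.308). Scd1, a fatty acid desaturase, was lower, with 6.09, 3.51 and 6.96 CPM in AML lung and 16.5, 10.4 and 12.2 CPM in normal lung.

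Of receptors and fate regulators 0 of 18 passed, with a median of -0.17. Csf2ra and Csf2rb, the GM-CSF receptor chains, had log2 fold changes of -0.52 and -0.51 (edgeR unadjusted p = 0.0123 and 0.0226). Csf1r, the receptor of M-CSF and a gene also high in monocytes, had 51.3, 207 and 146 CPM in AML lung and 51.1, 54.3 and 45.9 CPM in normal lung, so that AML lung replicate 1 matched normal lung. Without AML lung replicate 1, 1 gene of this list was called higher.

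Interferon response genes had 0 of 4 tested genes past adjustment and a median of 0.69. Without AML lung replicate 1, 4 of 9 tested passed, all higher, beside 169 higher of all 9387 genes, with a median of 1.93. Without a filter on low counts 3 of 14 did, beside 311 higher of all 17978 genes. Without AML lung replicate 3 the median was 0.00 over 5 genes, with 0 at an unadjusted p under 0.05. Of 11 inflammatory genes 0 passed, while DESeq2 and edgeR without AML lung replicate 1 each called 1. Of 9 immunoregulatory, 6 MHC class II and 13 immediate early and heat shock genes 0 passed. Without a filter on low counts, 2 of 14 inflammatory, 2 of 12 immunoregulatory and 2 of 20 receptor and fate genes passed, beside 440 of all 17978 genes.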

How the data were processed

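Single-cell RNA was measured in 3 AML lung and 3 normal lung libraries made with the 10x Genomics 3' kit v3.1. The deposited matrices hold raw UMI counts per gene and barcode for 32285 features, not normalized, made with Cell Ranger 7.0.0 on mm10, per the submitters' processing notes; the filter behind the deposited barcodes and the use of intronic reads are not given in the sources used here. Of 73095 barcodes, 71634 had at least 500 UMIs, 200 genes and under 10% mitochondrial UMIs. The members, gene lists and tests were chosen with earlier results of these data known.

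Cells are not replicates, so counts were summed per library and state and fitted across all genes by edgeR 4.0.16, under R 4.3.3 (TMM, filterByExpr, quasi-likelihood F test, Benjamini-Hochberg, threshold 0.05), checked on simulated data. Libraries needed at least 10 cycling cells. Cycling over noncycling used log2(CPM + 5) over genes with a mean of at least 10 CPM. Shares were compared with an exact permutation test (scipy 1.17.1). Doublets were kept in the main values and marked with Scrublet (scanpy 1.11.5), whose own threshold marked 0% in AML lung replicate 3 and normal lung replicate 3, where the median threshold of the others, 0.209, was used. Neutrophils were cells with Csf3r, at least 10 UMIs over S100a8 and S100a9, 0 gate genes and 0 UMIs over Ngp, Camp and Ltf. Named genes were the 20 highest and 15 lowest by mean log2 ratio at 50 CPM or more in either state and 1 direction in every library, the gate genes left out, and, for AML over normal lung, up to 6 a direction by p, taken from genes whose groups did not overlap and whose log2 CPM was 6 or more, since none passed. List genes were to be named by mean level, up to 6 a list; others (Rrm2, the helicase genes, Hist1h2bc, E2f2, Cdkn2c, Car4, Ctsk, Aurka, Csf1r, Csf2ra, Insig1, Cx3cr1 and Scd1 among them) were chosen after their values were seen.

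Alternatives were stricter gates, doublets left out, thinning, other size factors, no filter, DESeq2 1.42.0, a replicate block and each library left out; thinning to 1000 UMIs, a pseudocount of 1 CPM and a floor of 20 CPM were chosen after seeing the data.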

Additional observations from a re-analysis of the deposited data

Results flagged for a closer look

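Insig1 was flagged because cycling cells exceeded noncycling cells in every AML lung library and lay below them in every normal lung library, a difference that passed no test. The log2 ratios were 0.53, 0.22 and 0.55 in AML lung and -0.03, -0.01 and -0.10 in normal lung, a difference of means of 0.48. Ccl4, a chemokine gene, was flagged for the opposite pattern. Its log2 ratios were -2.24, -1.65 and -0.18 in AML lung and 1.59, 0.76 and 0.53 in normal lung, a difference of means of -2.32, on 5, 2 and 45 UMIs in cycling cells of AML lung and 321, 112 and 34 UMIs in those of normal lung. The edgeR test of such differences called 0 genes.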

How the results depend on the processing

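The cycling share kept its direction except in cells thinned to 3000 UMIs, where it was +1.70 percentage points; leaving out each library gave -7.02 to -0.472. Genes past the threshold between AML lung and normal lung in cycling cells, 0 by edgeR, numbered 440 without a filter on low counts, 37 by DESeq2 and 32 with the replicate block, and 0 to 226 when each library was left out. The p-values behind the 440 do not measure the spread between libraries, as given above. The 226 came without AML lung replicate 1, which leaves the libraries that carry neutrophil genes; the cause was not tested. Same-numbered libraries had correlations of deviations of 0.153, 0.013 and 0.166, not all over 0.1, so no pairing was assumed; differently numbered ones had -0.184 to 0.028. Libraries 1 and 3 correlated best with their own number, those numbered 2 did not, and median UMIs per kept cell fell in number order in both groups. With the replicate block 6 of the 12 named genes passed. The test of a different change in cycling and noncycling cells gave 31 genes without a filter and 0 when each library was left out. Genes at least 2-fold apart in every library numbered 234 to 267 when each library was left out, beside 235, and 218 higher and 1 lower in cells thinned to 3000 UMIs, with 174 of the 235 shared. The 12 genes named between AML lung and normal lung kept their direction under every alternative run, except that Pou2f2 had no value with predicted doublets left out. They were picked from these libraries for groups without overlap, so leaving out a library could hardly reverse them. Their kept direction therefore supports nothing. Depth limits the shares, since AML lung replicate 3 kept 819 of 5388 gate cells at 3000 UMIs, and AML lung replicate 2 rests on 19 cells.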
